A study of Homo sapiens with 21 samples.

Results

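The JNK and p38 kinase cascade was described here by 10 genes. They are the kinase ASK1 (MAP3K5) at the entry, the intermediate kinases MKK4 (MAP2K4), MKK7 (MAP2K7), MKK3 (MAP2K3) and MKK6 (MAP2K6), the JNKs JNK1 (MAPK8) and JNK2 (MAPK9), and the p38 kinases p38α (MAPK14), p38β (MAPK11) and p38δ (MAPK13). The genes were taken by their symbols from the 23368 genes of the expression table, and all 10 were present. The rule that picked them used no measured values, although it was set with earlier results of these data known.

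These stress-activated cascades pass a signal through 3 kinase tiers, from a MAP3K to a MAP2K to a MAPK. MKK4 and MKK7 phosphorylate the JNKs, MKK3 and MKK6 phosphorylate the p38 kinases, and MKK4 can act on both branches. ASK1 is held inactive by reduced thioredoxin and is released under oxidative stress. The cascade is switched on by phosphorylation of proteins that are already present, so the mRNA levels given here are not kinase activity. This RNA-seq measured neither the activity nor the protein amount of any kinase.

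The cells were hTERT-HPNE, an immortalized, nontransformed human pancreatic line, and all groups are this single line, grown in medium with EGF and puromycin. Untreated cells were collected at 0 h, and the other groups 4, 8 or 24 h after fresh medium with either 300 µM H2O2, an oxidant, or 400 ng/ml neocarzinostatin (NCS), which breaks both strands of DNA. Each of the 7 groups had 3 biological replicates, which gave 21 libraries. The study asked how cells answer oxidative stress and DNA double-strand breaks differently. No untreated group was collected at 4, 8 or 24 h, so treatment and time in fresh medium cannot be told apart in a comparison with untreated cells, whereas H2O2 and NCS groups of the same time share the time in fresh medium.

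The values are rLog values, log2 expression after size-factor scaling and shrinkage of differences, and depth is unknown because no counts were used here. Library medians lay between 7.14 and 7.19, and no pair of libraries was identical. The second H2O2 replicate at 8 h stood farthest from the rest of its group. KRT18 (11.4 to 11.9 over the libraries), KRT8 (7.73 to 8.28), NES (11.8 to 12.3) and VIM (16.8 to 17.2) were expressed, whereas the duct keratin KRT19 was near the bottom of the scale at 0.575 to 0.727 in every library. The acinar gene PRSS1 and the endocrine gene INS were listed at 0 throughout, and the other acinar and endocrine markers read at most 0.676 (CTRB1). Of the blood and endothelial markers, PTPRC, PECAM1 and VWF read at most 0.983, 2.42 and 3.41, whereas CD68 read 9.93 to 10.6. These are bulk samples, in which fewer cells of one kind and less RNA per cell cannot be told apart.

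In untreated cells the kinases stood at very different levels. Compared per kilobase of exon sequence, MKK3 was the highest at 9.81 on the log2 scale, and MKK6, the other p38 activator, was the lowest at -2.13. Second lowest was p38δ at 0.968, followed by JNK1 at 5.37. The remaining 6 kinases lay between 6.86 (JNK2) and 7.91 (p38α), and their order changed when the median length of the coding transcripts was used instead, while MKK3 stayed on top and MKK6, p38δ and JNK1 stayed at the bottom. MKK6 and p38δ were thus the only members with a mean rLog value below 5, where shrinkage is strongest. For MKK4, 2.19% of the 75-base stretches of its transcripts also occur in other genes, the pseudogene MAP2K4P1 among them. That share was 0.232% for MKK3 and 0 for the other 8.

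**Figure D1:**
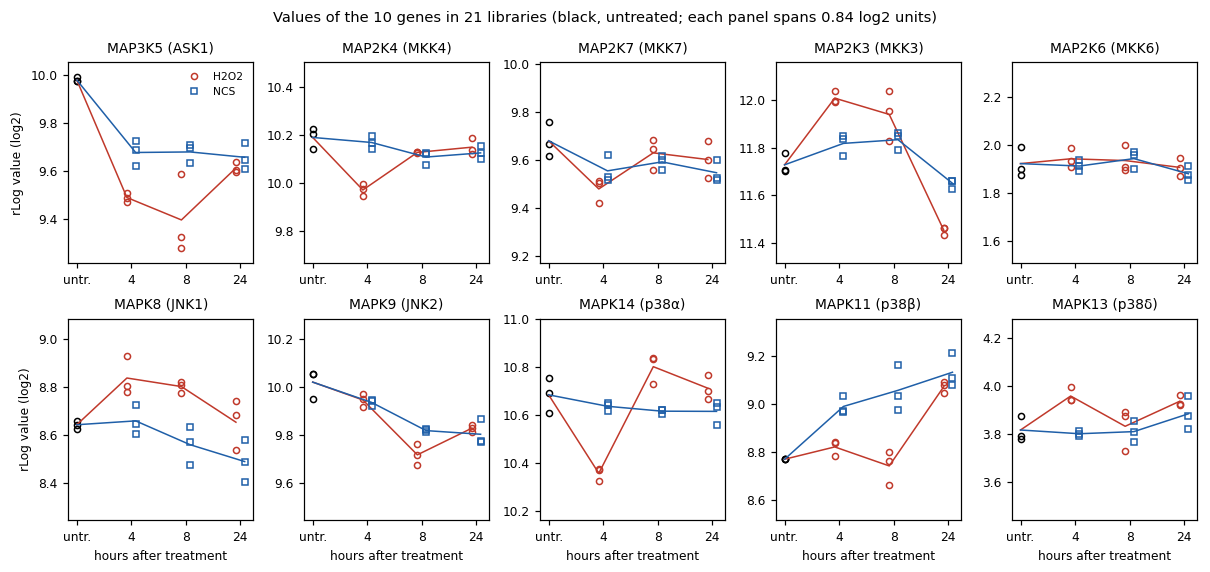
rLog value (log2) of each of the 10 genes in all 21 libraries against hours after treatment, with points for single libraries (black circles, untreated; red circles, H2O2; blue squares, NCS) and lines through the group means; each panel spans 0.84 log2 units. All treated libraries of ASK1 lay below the untreated ones, and p38α and MKK4 lay below them at 4 h of H2O2.

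Against untreated cells, the cascade genes moved by modest amounts and in both directions. At 4 h of H2O2, 7 of the 10 differed at an adjusted p below 0.05 (limma, Benjamini-Hochberg over 19694 genes), with MKK3, JNK1 and p38δ higher and ASK1, MKK4, MKK7 and p38α lower. The same limit was passed by 45.9% of all genes tested (26.2% higher, 19.7% lower) and by 54.9% of genes with a mean of at least 5. The median absolute difference of the members was 0.20 on the log2 scale, beside 0.08 over all genes and 0.12 over genes with a mean of at least 5. For 8 members the H2O2 libraries lay wholly outside the untreated range, as for 49.5% of all genes.

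Of the members, 5 were called at 8 h of H2O2 (3 higher, 2 lower), beside 37.4% of all genes (18.8% higher, 18.6% lower) and 55.9% of genes with a mean of at least 5. Those not overlapping with untreated cells numbered 5, beside 42%. By 24 h of H2O2 the count was 4 (1 higher, 3 lower), beside 40% (20.2% higher, 19.9% lower) and 62.1%, and 5 did not overlap, beside 59.7%. The median absolute difference of the members was 0.09 and 0.10 at these times, beside 0.064 and 0.070 over all genes and 0.13 and 0.15 over genes with a mean of at least 5.

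NCS gave 2 called members at 4 h (1 higher, 1 lower), beside 17.2% of all genes (7.47% higher, 9.72% lower) and 27.9% of those with a mean of at least 5. It gave 4 by 8 h (1 higher, 3 lower), beside 23.9% (10.5% higher, 13.3% lower) and 38.5%. By 24 h there were 5 (1 higher, 4 lower), beside 38% (19.6% higher, 18.4% lower) and 60%. The members not overlapping with untreated cells numbered 3, 6 and 6, beside 30%, 33.8% and 44.5% of all genes.

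No member passed the study's limit of an absolute log2 difference over 1 together with the adjusted p. The study set it on log2 fold changes from DESeq2, whereas here it was set on differences of shrunken rLog values, which is not alike. With H2O2 that limit was passed by 0.696%, 0.518% and 1.61% of all genes at the 3 times, and with NCS by 0.218%, 0.34% and 1.5%. ASK1 at 8 h of H2O2 was the single member past 0.58, a limit at which the share of all genes was not counted. The 6 comparisons share the same untreated libraries.

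**Figure D2:**
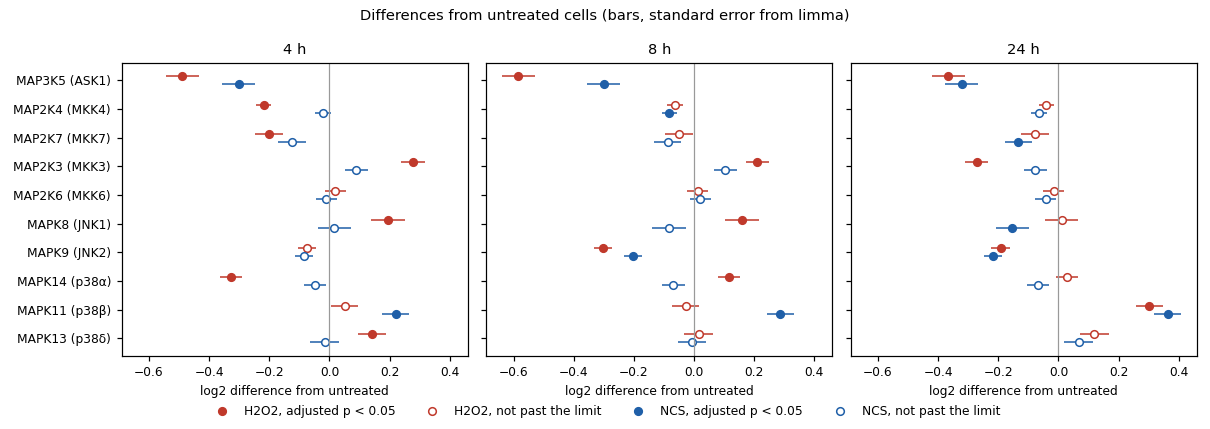
Log2 difference from untreated cells of each gene at 4, 8 and 24 h (red, H2O2; blue, NCS; 3 libraries a group), with bars for the standard error and filled points for an adjusted p below 0.05. ASK1 lies to the left and is called in all 6 groups, and p38β lies to the right and is called in all 3 NCS groups. MKK4, MKK7 and JNK2 also lie to the left in all 6 groups but are not called in every one.

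ASK1, the redox-sensitive MAP3K of the set, fell in every treated group. MAP3K5 (ENSG00000197442; chr6:136557047-136792518, minus strand, GENCODE 29 on GRCh38) had rLog values of 9.97, 9.97 and 9.99 in untreated cells. After H2O2 it read 9.51, 9.47 and 9.49 at 4 h, 9.28, 9.59 and 9.32 after 8 h, and 9.60, 9.60 and 9.64 after 24 h. All 9 H2O2 libraries lay below the untreated ones, and at 8 h the second replicate was well above the other two.

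The log2 difference of ASK1 at 4 h of H2O2 was -0.49 ± 0.055 (SE, n = 3 a group; adjusted p = 7.44e-07). By 8 h it was -0.58 (adjusted p = 1.15e-07), and by 24 h -0.37 (adjusted p = 1.95e-05). At 8 h the level fell by 33.3%, the widest difference of any member, and leaving out single libraries moved that log2 difference between -0.68 and -0.52. NCS libraries read 9.62, 9.69 and 9.72 at 4 h, 9.63, 9.69 and 9.71 after 8 h, and 9.64, 9.61 and 9.72 after 24 h, again all below the untreated range. Under NCS the difference was nearly flat over time, at -0.30, -0.30 and -0.32 (adjusted p = 0.000576, 0.000384 and 8.79e-05).

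The stretch before the MAP3K5 gene is shown because its transcript fell the most of the set. It is taken from RefSeq (GRCh38.p14, chr6:136792519-136792727, minus strand) and ends at the last base before the GENCODE gene. Capitals mark the GC box GGGCGG.
MAP3K5 upstream: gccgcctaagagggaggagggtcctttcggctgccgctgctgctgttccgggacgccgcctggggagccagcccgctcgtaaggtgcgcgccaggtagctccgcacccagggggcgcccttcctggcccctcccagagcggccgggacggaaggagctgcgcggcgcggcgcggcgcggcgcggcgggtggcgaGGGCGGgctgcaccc
The stretch was 78.0% G or C.

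MKK4, which phosphorylates JNK and can phosphorylate p38, dipped at 4 h of H2O2. Its gene MAP2K4 (ENSG00000065559; chr17:12020824-12143830, plus strand) read 10.22, 10.14 and 10.20 in untreated cells and 9.94, 9.99 and 9.97 at 4 h of H2O2. The groups did not overlap, and the log2 difference was -0.22 ± 0.026 (SE; adjusted p = 1.36e-06). At 8 h (10.12, 10.13 and 10.13) and 24 h (10.14, 10.12 and 10.19) the differences were -0.06 and -0.04, neither of them past the limit (adjusted p = 0.066 and 0.252). The 8 h value passed it without the second untreated replicate (-0.09, adjusted p = 0.0177) and without the mean-variance trend (0.0443).

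Under NCS, MKK4 stayed close to untreated cells, with values from 10.07 to 10.20 over the 9 libraries. The log2 differences were -0.02, -0.08 and -0.06 at 4, 8 and 24 h, of which only the 8 h value was called (adjusted p = 0.0255). That call was lost without the first or the third untreated replicate or without the first NCS replicate at 8 h (adjusted p = 0.126, 0.0821 and 0.119). It was also lost when only the compared groups were fitted (0.113) or the libraries were quantile normalized (0.111). The 24 h value passed the limit without the second untreated or the second NCS replicate (adjusted p = 0.0147 and 0.0401).

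MKK7, the JNK-specific activator, also dipped at 4 h of H2O2. MAP2K7 (ENSG00000076984; chr19:7903843-7914478, plus strand) read 9.62, 9.76 and 9.67 in untreated cells and 9.51, 9.51 and 9.42 at 4 h of H2O2, with no overlap. The log2 difference was -0.20 ± 0.046 (SE; adjusted p = 0.00139). At 8 and 24 h of H2O2 it was -0.05 and -0.08 (adjusted p = 0.46 and 0.208).

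Under NCS, MKK7 differed by -0.13 at 4 h, -0.09 at 8 h and -0.13 at 24 h (adjusted p = 0.0703, 0.203 and 0.0269). Only the 24 h value (libraries 9.53, 9.60 and 9.52) was called. It was lost without the second untreated replicate or without the first or the third NCS replicate at 24 h (adjusted p = 0.156, 0.0848 and 0.0943). It was also lost in the fit of the compared groups alone (0.0619) and after quantile normalization (0.303). The 4 h value passed the limit without the first untreated or the second NCS replicate (adjusted p = 0.047 and 0.0436), after aligning library medians (0.0377) and among genes with a mean of at least 5 (0.0342).

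MKK3, the abundant p38 activator, rose early and fell late under H2O2. MAP2K3 (ENSG00000034152; chr17:21284672-21315240, plus strand) read 11.70, 11.71 and 11.78 in untreated cells, 11.99, 11.99 and 12.04 at 4 h, 11.95, 11.83 and 12.04 after 8 h, and 11.47, 11.46 and 11.44 after 24 h of H2O2. Every library at 4 and 8 h lay above the untreated range and every library at 24 h below it. They gave log2 differences of 0.28 ± 0.039 (SE; adjusted p = 1.01e-05), 0.21 (adjusted p = 0.000236) and -0.27 (adjusted p = 1.1e-05).

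Under NCS, MKK3 read 11.85, 11.84 and 11.76 at 4 h, 11.79, 11.85 and 11.86 after 8 h, and 11.63, 11.66 and 11.66 after 24 h. Its log2 differences of 0.09, 0.10 and -0.08 were not past the limit (adjusted p = 0.139, 0.0587 and 0.137). The 8 h value passed it in the fit of genes with a mean of at least 5 (adjusted p = 0.0191), after quantile normalization (0.0127), without the third untreated replicate (0.0359) and without the first NCS replicate at 8 h (0.0436).

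The stretch before the MAP2K3 gene is shown because its mRNA went both ways and because it was the one member with an AP-1 motif in the 250 bases before a RefSeq start. AP-1 is the dimer of JUN and FOS or ATF proteins, and JUN is the JNK substrate that gave the kinase its name. The first line is RefSeq sequence (GRCh38.p14, chr17:21284461-21284671, plus strand) up to the base before the GENCODE gene. The second line, chr17:21284659-21284687, overlaps its end and spans the AP-1 motif TGANTCA, most of which lies inside the GENCODE gene. Capitals mark GC boxes, a CCAAT box and the AP-1 match.
MAP2K3 upstream: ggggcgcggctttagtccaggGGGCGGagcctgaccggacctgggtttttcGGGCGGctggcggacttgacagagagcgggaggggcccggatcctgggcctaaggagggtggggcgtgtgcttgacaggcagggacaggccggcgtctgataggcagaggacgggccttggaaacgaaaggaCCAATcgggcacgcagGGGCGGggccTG
MAP2K3 AP-1 match: gGGGCGGggccTGAGTCAgcgcagttcgg
The match starts 41 bases before the RefSeq start, and no binding was measured.

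Over the 15 RefSeq promoters of the 10 genes, each read on both strands for 250 bases before the start, the AP-1 motif TGANTCA occurred in 1 promoter, beside 6.57% of 35116 promoters. The CRE TGACGTCA and the antioxidant response element TGACNNNGC occurred in 0 of the 15, beside 1.65% and 10.9% of promoters. CCAAT occurred in 5 of the 15, which belong to 4 genes (MAP2K3, MAP2K7, MAPK14 and MAPK9), beside 32% of promoters. The GC box GGGCGG occurred in 12 of the 15, beside 42.6% of promoters. Counted by gene it occurred for 10 of 10, although a gene with several promoters had more chances to hold a motif. A CRE and an antioxidant response element can share letters. These are matches of letters in a window and no record of a bound factor.

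MKK6, the other p38 activator, was barely expressed and gave 0 calls in the 12 limma comparisons, and 0 at an unadjusted p below 0.05. MAP2K6 (ENSG00000108984; chr17:69414698-69553861, plus strand) read between 1.85 and 2.00 in the 21 libraries. Its largest log2 difference from untreated cells was -0.04 (NCS at 24 h, adjusted p = 0.402). The shrinkage of rLog values bears most on a gene this low, so this does not show that its level was the same.

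JNK1 and JNK2, the c-Jun N-terminal kinases of most tissues, moved in opposite directions at 8 h of H2O2. MAPK8 (JNK1; ENSG00000107643; chr10:48306639-48439360, plus strand) read 8.66, 8.63 and 8.64 in untreated cells, 8.78, 8.93 and 8.81 at 4 h, 8.82, 8.81 and 8.77 after 8 h, and 8.68, 8.54 and 8.74 after 24 h of H2O2. The 4 and 8 h libraries lay above the untreated range, while those at 24 h spread around it. Against untreated cells the log2 differences were 0.19 ± 0.056 (SE; adjusted p = 0.00764), 0.16 (adjusted p = 0.0304) and 0.01 (adjusted p = 0.913).

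The JNK1 calls were lost more often than those of any other member when 1 library was left out. The 4 h call was lost without the second H2O2 replicate (log2 difference 0.15, adjusted p = 0.0512). The 8 h call was lost in 5 of the 6 fits that leave out 1 library (any of the 3 untreated replicates, or the first or the second H2O2 replicate), with adjusted p up to 0.0876 and log2 differences from 0.15 to 0.17. Under NCS, JNK1 read 8.61, 8.73 and 8.65 at 4 h, 8.47, 8.57 and 8.64 after 8 h, and 8.49, 8.40 and 8.58 after 24 h.

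Only the 24 h NCS value of JNK1 was called, at -0.15 (adjusted p = 0.0359), beside 0.02 and -0.08 at 4 and 8 h (adjusted p = 0.972 and 0.357). It was lost in 5 of 6 fits with 1 library left out (any untreated replicate, or the first or the second NCS replicate at 24 h), with adjusted p up to 0.179, and after quantile normalization (0.133).

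JNK2 fell in both treatments from 8 h on. MAPK9 (ENSG00000050748; chr5:180233143-180292099, minus strand) read 10.05, 9.95 and 10.06 in untreated cells, 9.92, 9.95 and 9.97 at 4 h, 9.67, 9.71 and 9.76 after 8 h, and 9.81, 9.83 and 9.84 after 24 h of H2O2. The 4 h libraries overlapped the untreated ones, and those at 8 and 24 h lay below them. The log2 differences were -0.07 (adjusted p = 0.0574), -0.30 ± 0.031 (SE; adjusted p = 3.07e-07) and -0.19 (adjusted p = 4.45e-05).

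Under NCS, JNK2 read 9.92, 9.95 and 9.94 at 4 h, 9.82, 9.82 and 9.81 after 8 h, and 9.86, 9.77 and 9.77 after 24 h. The log2 differences were -0.08 (adjusted p = 0.0702), -0.20 (adjusted p = 6.12e-05) and -0.22 (adjusted p = 1.18e-05). Both values at 4 h passed the limit without the second untreated replicate, the lowest of its group (adjusted p = 0.00742 for H2O2 and 0.011 for NCS).

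The balance of the JNKs shifted with these changes. Within a library, the rLog value of JNK1 minus that of JNK2 was -1.38 ± 0.046 (SD, n = 3) in untreated cells, -1.11 ± 0.074 at 4 h, -0.91 ± 0.068 after 8 h, and -1.17 ± 0.10 after 24 h of H2O2. All 9 H2O2 libraries lay above the untreated range of -1.41 to -1.33. With NCS the means were -1.28, -1.26 and -1.31 at 4, 8 and 24 h, and the libraries at 8 and 24 h overlapped untreated cells. This difference is not corrected for length and is a description without a test.

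**Figure D3:**
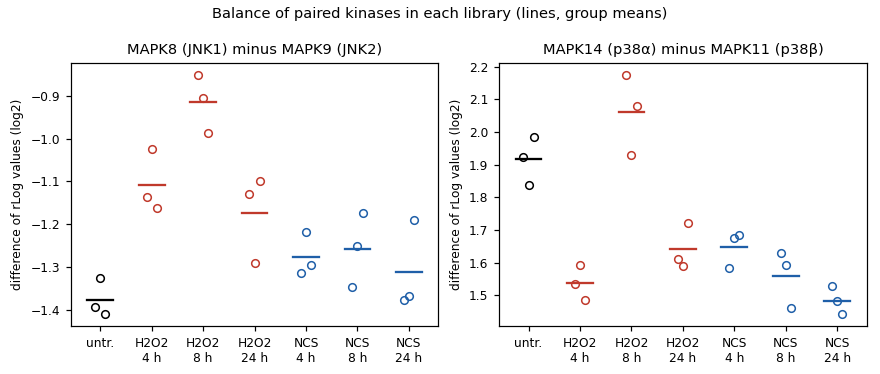
Difference of the rLog values (log2) of JNK1 and JNK2, left, and of p38α and p38β, right, in each library by group, with lines for group means (black, untreated; red, H2O2; blue, NCS; 3 libraries a group). The JNK difference was nearest 0 at 8 h of H2O2 (mean -0.91), and the p38 difference was lowest at 24 h of NCS (mean 1.48).

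p38α, the widely expressed p38, showed the sharpest dip and recovery of the MAPKs. MAPK14 (ENSG00000112062; chr6:36027677-36111236, plus strand) read 10.69, 10.61 and 10.76 in untreated cells, 10.37, 10.37 and 10.33 at 4 h, 10.84, 10.73 and 10.84 after 8 h, and 10.70, 10.67 and 10.77 after 24 h of H2O2. The 4 h libraries lay wholly below the untreated ones, while those at 8 and 24 h overlapped them. The log2 differences were -0.33 ± 0.037 (SE; adjusted p = 8.32e-07), 0.12 (adjusted p = 0.0167) and 0.03 (adjusted p = 0.671).

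The rise of p38α at 8 h rested on few libraries. It was lost without the second untreated replicate or without the first or the third H2O2 replicate at 8 h (log2 differences 0.08, 0.10 and 0.10; adjusted p = 0.115, 0.0742 and 0.0788) and in the fit of the compared groups alone (0.136). NCS libraries read between 10.56 and 10.65, with log2 differences of -0.05, -0.07 and -0.07, none of them called (adjusted p = 0.493, 0.225 and 0.166). Without the second untreated replicate, those at 8 and 24 h were -0.11 and passed the limit (adjusted p = 0.0489 and 0.0306).

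p38β, the close relative of p38α, rose under NCS from 4 h on and under H2O2 at 24 h. MAPK11 (ENSG00000185386; chr22:50263713-50270767, minus strand) read 8.77 in each of the 3 untreated libraries. NCS libraries read 9.03, 8.97 and 8.97 at 4 h, 8.98, 9.03 and 9.16 after 8 h, and 9.11, 9.08 and 9.21 after 24 h, all above the untreated level. The log2 differences were 0.22 ± 0.045 (SE; adjusted p = 0.00169), 0.29 (adjusted p = 8.06e-05) and 0.36 (adjusted p = 2.31e-06), and the last was the largest rise of any member.

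Under H2O2, p38β read 8.84, 8.78 and 8.84 at 4 h, 8.66, 8.80 and 8.76 after 8 h, and 9.09, 9.08 and 9.04 after 24 h. The differences at 4 and 8 h were 0.05 and -0.03 (adjusted p = 0.391 and 0.725), and that at 24 h was 0.30 (adjusted p = 1.87e-05). After quantile normalization the 4 h value was 0.11 and passed the limit (adjusted p = 0.0467). The rLog value of p38α minus that of p38β was 1.92 ± 0.074 (SD, n = 3) in untreated cells, 1.54, 2.06 and 1.64 at 4, 8 and 24 h of H2O2, and 1.65, 1.56 and 1.48 at those times of NCS.

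p38δ, a p38 of more restricted tissues whose gene lies next to that of p38α on chromosome 6, was low throughout. MAPK13 (ENSG00000156711; chr6:36127809-36144524, plus strand) read 3.88, 3.78 and 3.79 in untreated cells and 3.94, 3.99 and 3.94 at 4 h of H2O2. The groups did not overlap, and the log2 difference was 0.14 ± 0.048 (SE; adjusted p = 0.0209). It was lost without the second or the third untreated replicate or without the second H2O2 replicate (adjusted p = 0.0777, 0.0673 and 0.0731) and in the fit of the compared groups alone (0.0532), and it turned to -0.01 (adjusted p = 0.852) after quantile normalization.

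The other 5 treated groups gave p38δ log2 differences from -0.02 to 0.12, none of them called. The highest of these, at 24 h of H2O2, had an adjusted p of 0.0542 and passed the limit without the first untreated replicate (0.0315) and without the mean-variance trend (0.0314).

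H2O2 and NCS were then compared at the same time, which holds time in fresh medium constant. At 4 h, 7 members differed, beside 44.4% of all genes (26.3% higher and 18% lower with H2O2) and 52.4% of those with a mean of at least 5, and the replicates of 8 did not overlap, beside 50.1%. In H2O2-treated cells MKK3 (log2 difference 0.19, adjusted p = 0.000586), JNK1 (0.18, adjusted p = 0.0138) and p38δ (0.16, adjusted p = 0.0118) were higher. p38α (-0.28, adjusted p = 5.69e-06), MKK4 (-0.20, adjusted p = 4.62e-06), ASK1 (-0.19, adjusted p = 0.00912) and p38β (-0.17, adjusted p = 0.00494) were lower. MKK7, which was lower than in untreated cells at 4 h of H2O2, differed by -0.08 between the treatments and was not called (adjusted p = 0.2).

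Among these 4 h calls, JNK1 was lost without the second H2O2 or the first NCS replicate (adjusted p = 0.0829 and 0.0628). After quantile normalization p38δ was lost as well (0.01, adjusted p = 0.923).

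At 8 h, 6 members differed between the treatments, beside 34.1% of all genes (18.7% higher and 15.4% lower with H2O2) and 51.2% of those with a mean of at least 5, and 5 did not overlap, beside 40.8%. p38β (-0.32, adjusted p = 2.26e-05), ASK1 (-0.28, adjusted p = 0.000464) and JNK2 (-0.10, adjusted p = 0.0159) were lower with H2O2. JNK1 (0.24, adjusted p = 0.00208), p38α (0.19, adjusted p = 0.0006) and MKK3 (0.11, adjusted p = 0.0426) were higher, so that p38α stood on opposite sides of NCS at 4 and 8 h.

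Of the 8 h calls, those of MKK3 and JNK2 were lost in some of the other fits. MKK3 was lost without the first or the third H2O2 replicate or the first or the second NCS replicate (log2 differences 0.10, 0.06, 0.08 and 0.11; adjusted p = 0.113, 0.271, 0.167 and 0.0658). It was also lost after quantile normalization (0.138), in the fit of the compared groups alone (0.22) and without the mean-variance trend (0.0542). JNK2 was lost without the first H2O2 replicate (-0.08, adjusted p = 0.0867), after aligning library medians (0.0748) and in the fit of the compared groups alone (0.0556).

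At 24 h, 2 members differed, beside 21.9% of all genes (11% higher and 10.9% lower with H2O2) and 34.5% of those with a mean of at least 5, and 2 did not overlap, beside 36.5%. A log2 difference over 1 was reached by none of the members and by 0.574%, 0.162% and 0.0152% of all genes at the 3 times. MKK3 was lower with H2O2 (-0.20, adjusted p = 0.00103) and JNK1 higher (0.16, adjusted p = 0.0419). JNK1 was lost in 4 of 6 fits that leave out 1 library (the first or the third H2O2 replicate, or the first or the second NCS replicate), with adjusted p up to 0.198. It was also lost after quantile normalization (0.0771), in the fit of the compared groups alone (0.154) and without the mean-variance trend (0.0525). ASK1 differed by -0.04 and p38β by -0.06 between the treatments at that time (adjusted p = 0.692 and 0.427).

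**Figure D4:**
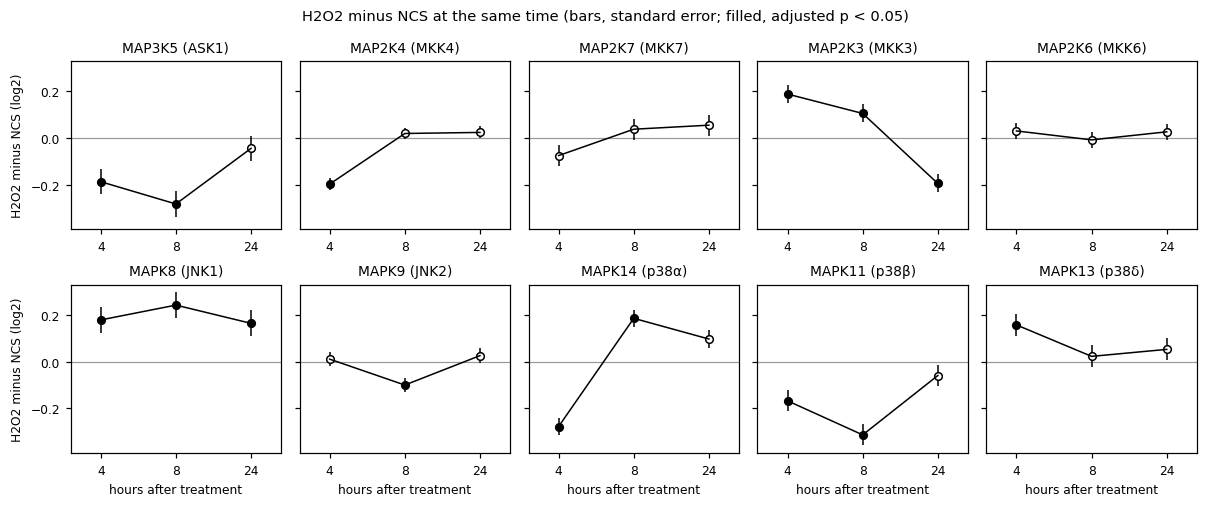
H2O2 minus NCS (log2) at 4, 8 and 24 h for each gene, with standard errors and filled points for an adjusted p below 0.05 (3 libraries a group). MKK3 runs from 0.19 down to -0.20, p38α from -0.28 at 4 h to 0.19 at 8 h, and MKK6 stays near 0.

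The change over time was itself tested. From 4 to 24 h of H2O2, 7 members changed, beside 55.5% of all genes (23.1% higher, 32.4% lower) and 69.2% of those with a mean of at least 5, and 8 did not overlap, beside 69.1%. MKK3 fell by 0.55 on the log2 scale (adjusted p = 7.29e-10), and p38α (0.35, adjusted p = 1.48e-07), p38β (0.25, adjusted p = 0.000101) and MKK4 (0.18, adjusted p = 8.8e-06) rose. MKK7 also rose (0.12, adjusted p = 0.0292), and JNK1 (-0.18, adjusted p = 0.00862) and JNK2 (-0.12, adjusted p = 0.00317) fell.

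Of these, JNK1 was lost without the second H2O2 replicate at 4 h or at 24 h (adjusted p = 0.058 and 0.0677) and in the fit of the compared groups alone (0.0536). MKK7 was lost without the third replicate at 4 h or the first or the second at 24 h (log2 differences 0.09, 0.08 and 0.12; adjusted p = 0.132, 0.161 and 0.0611) and in the fit of the compared groups alone (0.071). ASK1 differed by 0.12 (adjusted p = 0.0653) and passed the limit when only the compared groups were fitted (0.00312).

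From 4 to 24 h of NCS, 4 members changed, beside 38.3% of all genes (19.5% higher, 18.8% lower) and 60.5% of those with a mean of at least 5, and 5 did not overlap, beside 46.4%. p38β rose by 0.14 (adjusted p = 0.0165), and MKK3 (-0.17, adjusted p = 0.00179), JNK1 (-0.17, adjusted p = 0.0207) and JNK2 (-0.13, adjusted p = 0.00178) fell. JNK1 was lost without the second NCS replicate at 4 h or the first or the second at 24 h (adjusted p = 0.104, 0.0522 and 0.117) and after quantile normalization (0.0864). p38β was lost without the second or the third replicate at 4 h or the third at 24 h (adjusted p = 0.0571, 0.0575 and 0.104).

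The H2O2 minus NCS difference changed between 4 and 24 h for 3 members, beside 39.4% of all genes (16.6% up, 22.7% down) and 49.1% of those with a mean of at least 5. No member changed by over 1 in any of these tests over time, beside 1.51% of all genes with H2O2, 1.03% with NCS and 0.564% for the difference. It went up for p38α (0.38, adjusted p = 1.57e-05) and MKK4 (0.22, adjusted p = 8.86e-05) and down for MKK3 (-0.38, adjusted p = 2.1e-05). ASK1 gave 0.14 (adjusted p = 0.158), which passed the limit when only the compared groups were fitted (0.0281), and MKK7 gave 0.13 (adjusted p = 0.121), which passed it without the third H2O2 replicate at 24 h (0.0491).

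Around the 10 kinases, 68 genes of the same pathway were counted in 9 lists compiled by hand. At 4 h of H2O2, 22 of the 68 were higher and 25 lower, beside 26.2% and 19.7% of all genes. The counts were 23 and 16 at 8 h (beside 18.8% and 18.6%) and 17 and 16 at 24 h of H2O2 (beside 20.2% and 19.9%). With NCS they were 11 and 12 at 4 h (beside 7.47% and 9.72%), 10 and 13 at 8 h (beside 10.5% and 13.3%) and 13 and 15 at 24 h (beside 19.6% and 18.4%). Of 16 other MAP3Ks, 2 were higher and 10 lower at 4 h of H2O2 (median log2 difference -0.15, beside 0.00 over all genes), while 3 were higher and 4 lower at 4 h of NCS (median -0.01).

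For the lists at 4 h, the share called in either direction was 45.9% of all genes (54.9% of those with a mean of at least 5) with H2O2 and 17.2% (27.9%) with NCS. Of 10 phosphatases that act on JNK and p38, 6 were higher and 1 lower at 4 h of H2O2 (median 0.48), and 4 were higher and 1 lower at 4 h of NCS (median 0.08). Of the 3 GADD45 genes, whose proteins bind and activate MAP3K4, 2 were called at 4 h of both treatments, each of them higher. The third, GADD45G, lay near the bottom of the scale (mean rLog value 0.027 in untreated cells), where shrinkage is strongest. The 9 transcription factors phosphorylated by JNK or p38 had 4 higher and 3 lower at 4 h of H2O2. Of 7 MAP4Ks, 1 was higher and 2 were lower there, and of 8 scaffolds and TAB adapters 4 moved each way.

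The ERK cascade, the growth factor branch of the MAPK family, had 9 genes in its own list. At 4 h of H2O2, 2 of them were called, both lower (median of the list -0.05), beside 45.9% of all genes. By 24 h, 5 were higher and 2 lower with H2O2, when 40% of all genes and 62.1% of those with a mean of at least 5 were called. With NCS 3 were higher and 2 lower, beside 38% and 60%. No ERK gene reached an absolute log2 difference of 0.58 among its calls, and whether this list and the 10 kinases differ was not tested.

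**Figure D5:**
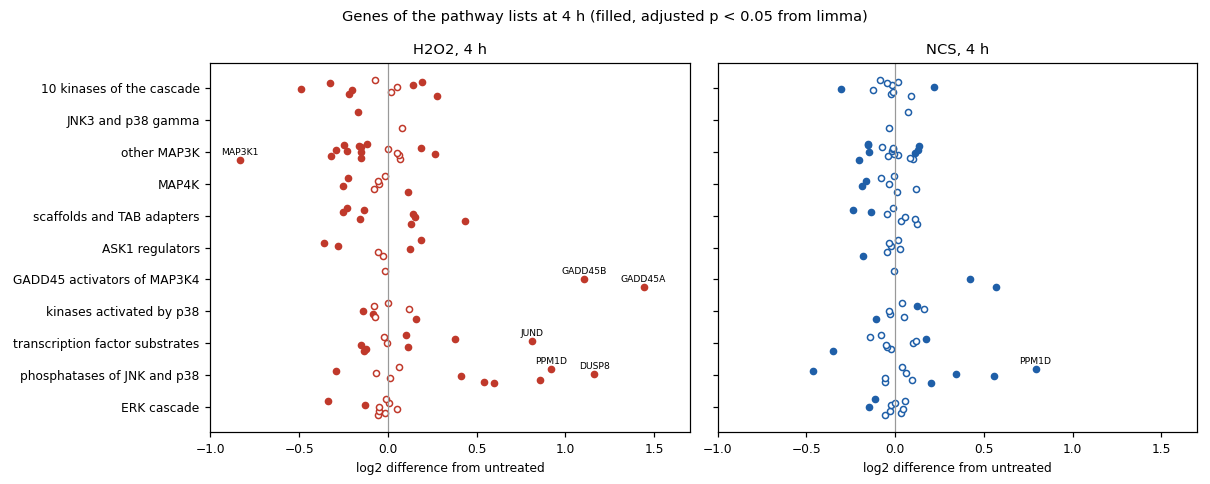
Log2 difference from untreated cells at 4 h of H2O2 (left, red) and 4 h of NCS (right, blue) for each gene of the pathway lists and of the ERK cascade, with filled points for an adjusted p below 0.05 and names for described genes past 0.58. At 4 h of H2O2, GADD45A, DUSP8 and GADD45B lie past 1 to the right and MAP3K1 at -0.83 to the left, farther out than any of the 10 kinases.

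MAP3K1 (MEKK1), a MAP3K upstream of MKK4 and MKK7, read 8.26, 8.23 and 8.01 in untreated cells and 7.33, 7.27 and 7.40 at 4 h of H2O2. It had fallen by 0.83 (adjusted p = 1.9e-09) with no overlap, and at 4 h of NCS the difference was -0.20 (adjusted p = 0.021). TRAF2, an adapter that links TNF receptors to ASK1, fell by 0.62 at 24 h of H2O2 (adjusted p = 4.5e-09) and by 0.60 at 24 h of NCS (adjusted p = 7e-09).

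GADD45A rose by 1.44 at 4 h of H2O2 (adjusted p = 5.7e-13) and 0.57 at 4 h of NCS (adjusted p = 5.7e-07). GADD45B rose by 1.11 (adjusted p = 5.7e-13) and 0.42 (adjusted p = 8.5e-07) at those points. JUND, an AP-1 subunit, read 9.63, 9.54 and 9.37 in untreated cells and 10.46, 10.21 and 10.29 at 4 h of H2O2, a rise of 0.81 (adjusted p = 2.5e-06), beside 0.12 at 4 h of NCS (adjusted p = 0.56).

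MKNK2 (MNK2), which phosphorylates eIF4E downstream of p38 and ERK, moved later. It read 10.70, 10.74 and 10.68 in untreated cells, 12.22, 11.71 and 12.17 at 8 h of H2O2 and 11.96, 11.95 and 11.95 at 24 h. The rises were 1.33 (adjusted p = 9.8e-10) and 1.25 (adjusted p = 4.2e-10), beside 0.53 at 24 h of NCS (adjusted p = 3.2e-05). At 8 h the second H2O2 replicate was the lowest of the 3.

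Among the phosphatases, DUSP8, which dephosphorylates JNK and p38, read 5.92, 5.97 and 6.14 in untreated cells and 7.16, 7.19 and 7.17 at 4 h of H2O2. Its rise was 1.16 there (adjusted p = 2.9e-10) and 0.34 at 4 h of NCS (adjusted p = 0.0019), and at 24 h of H2O2 the difference was -0.09 (adjusted p = 0.36). DUSP4 rose late, by 1.16 at 24 h of H2O2 (adjusted p = 4e-14) and 0.87 at 24 h of NCS (adjusted p = 1.8e-12). PPM1D (WIP1), a p53-induced phosphatase that acts on p38, rose by 0.92 at 4 h of H2O2 (adjusted p = 1.8e-09) and 0.79 at 4 h of NCS (adjusted p = 6.4e-08).

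The remaining JNK and p38 genes were read as well. MAPK10 (JNK3), the neuronal JNK, read 2.83 to 3.02 and gave 0 calls in the 6 limma comparisons with untreated cells (1 at an unadjusted p below 0.05). It was called in other comparisons: higher with H2O2 than with NCS at 4 h (0.11) and higher at 24 h than at 4 h of NCS (0.10). The fall of its H2O2 minus NCS difference from 4 to 24 h (-0.17) was called too. MAPK12 (p38γ), known as the p38 of muscle, had a mean rLog value of 9.31 in untreated cells, above p38β (8.77) and JNK1 (8.64) without correction for length. Against untreated cells it was lower at 4 h (-0.17) and 8 h (-0.22) and higher at 24 h (0.14) of H2O2, and it was not called in any NCS group. It was also called lower with H2O2 than with NCS at 4 h (-0.24) and 8 h (-0.25). Its rise from 4 to 24 h of H2O2 (0.31) and that of its H2O2 minus NCS difference (0.31) were called as well.

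The genes most like the members with the largest rise and fall were found by the root-mean-square difference of profiles centred on untreated cells, over 21 libraries and 11680 genes. For p38β these were IL10RB, an interleukin 10 receptor subunit (0.066), PIK3CD, a PI3-kinase catalytic subunit (0.068), and STYXL1 (0.070), beside a median of 0.27 over all genes compared. For ASK1 they were PPP2R3A, a regulatory subunit of PP2A (0.080), AMD1, which makes the aminopropyl donor for polyamines (0.085), and GK5 (0.088), beside a median of 0.40. The likeness is a description over libraries that share treatments.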

How the data were processed

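RNA-seq was performed on 21 libraries of hTERT-HPNE cells, 7 groups of 3. Per the submitters' processing notes, the authors used HISAT2, HTSeq, DESeq2 and hg19. Tool versions, the gene annotation, and the strand setting of the counting are not given in the sources used here. The deposited values are log2 (rLog) values that the authors made with DESeq2 from the counts over all libraries. They were used without further scaling.

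Of 23368 genes, 3674 at 0 in every library were left out. Groups were compared with limma 3.58.1 (R 4.3.3) in one fit of 7 groups with a mean-variance trend, with Benjamini-Hochberg adjustment over 19694 genes, in 12 comparisons. A gene was called at an adjusted p-value below 0.05. An exact permutation test of 3 libraries against 3 cannot go below 0.1 and was not used. In the main fit the p-values rest on a spread between biological replicates that is pooled over all 7 groups and moderated over genes. They do not measure the spread of the 2 compared groups alone. The H2O2 libraries at 8 h lay farther from the rest of their group (mean distance 13.1 to 14.9) than any other library did (at most 11.0).

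The 10 kinases, the pathway lists and the tests were chosen with earlier results of these data known. All 10 were named; of each pathway list, at most the 3 genes with the largest calls past an absolute log2 difference of 0.58, plus MAPK10 and MAPK12. The fit was tested on simulated data with independent normal noise, of the same spread for a gene in every group. Only genes with a mean of at least 5 were changed, 500 of each size over 5 runs, in the group for 4 h of H2O2. A log2 difference of 0.3 was recovered in 85.6% of cases and one of 1 in 100%, and 5.40% of calls were false. Smaller differences and genes with a lower mean were not tested in this way. In the data far more genes were called (45.9% at 4 h of H2O2) and the groups differed in spread, so these rates need not hold there. Alternatives were aligned medians, quantile normalization, a mean of at least 5, only the compared groups, no trend, a replicate block, a limit of 0.58 and each library left out. Gene positions and lengths came from GENCODE 29 and promoters from RefSeq, both on GRCh38, which is not the build of the deposited table, so no position comes from that table. Tables and figures were made with Python 3.11.15, numpy 2.4.6, pandas 2.3.3 and matplotlib 3.10.9.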

Additional observations from a re-analysis of the deposited data

Results flagged for a closer look

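The H2O2 minus NCS difference of 3 kinases changed between 4 and 24 h by limma's test of the difference itself. It was -0.38 for MAP2K3, 0.22 for MAP2K4 and 0.38 for MAPK14 on the log2 scale. For MAP2K3 it went from 0.19 at 4 h to -0.20 at 24 h, for MAP2K4 from -0.20 to 0.02, and for MAPK14 from -0.28 to 0.10. All 3 calls were kept in every fit that left out 1 library. The same test passed for 39.4% of all genes.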

How the results depend on the processing

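With a limit of 0.58 on the absolute log2 difference, the number of members called was 1 at 8 h of H2O2 (ASK1) and 0 in the other 11 comparisons. The share of all genes was not counted at this limit or in the other fits given here. Quantile normalization left 3 called members at 24 h of NCS instead of 5 and 1 between the treatments at 24 h instead of 2, and turned MAPK13 at 4 h of H2O2 from 0.14 to -0.014. The fit of the compared groups alone and that without a mean-variance trend each left 1 between the treatments at 24 h; the causes were not tested. Leaving out each library in turn gave 5 to 7, 3 to 4 and 4 to 5 called members at 4, 8 and 24 h of H2O2 and 2 to 3, 3 to 5 and 3 to 5 at those times of NCS. It gave 6 to 7, 4 to 6 and 1 to 2 between the treatments, 5 to 7 from 4 to 24 h of H2O2, 2 to 4 from 4 to 24 h of NCS, and 3 to 4 for the change of the difference. In these fits, 722 of 780 single results, called or not, stayed on their side of the limit with the same direction. Calls were lost in 45 and gained in 13.

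The deviations of same-numbered replicates had correlations from -0.11 to 0.21, and in 0 of 11 pairs of groups was every pair above 0.1. Differently numbered replicates were not compared, so this check cannot settle whether the numbers pair samples. With the replicate number as a block, 119 of 120 member results, called or not, stayed on their side of the limit. MAPK14 between the treatments at 24 h passed it (0.10, adjusted p = 0.0386).

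Aligned medians moved the median of all genes by at most 0.03. With depth unknown, the values of MAPK13 and MAP2K6, the lowest members, carry an error from counting that could not be calculated.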
